A study of Mus musculus with 15 samples.

Results

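For every gene, the difference between the injected side of the mouse corpus callosum and the opposite side was compared between 2 models of white matter injury, one made with L-NIO and one with lysophosphatidylcholine (LPC). The quantity compared is the interaction of model and side. It is the L-NIO side difference (LNIO-Ipsil minus LNIO-Contra) minus the LPC side difference (LPC-Ipsil minus LPC-Contra), in log2. A positive interaction means that a gene was relatively higher on the injected side after L-NIO than after LPC, and a negative one means the reverse. Each interaction has 2 arms, the side difference of each model, and the results below give both arms for many of the genes and lists named. All genes that passed a filter on low counts were included, 16795 of 33321 genes, in 12 of the 15 libraries.

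The 4 groups compared were LPC-Ipsil (LPC injection site), LPC-Contra (the site opposite to it), LNIO-Ipsil (L-NIO injection site) and LNIO-Contra (the site opposite to it), each with 3 libraries of tissue taken on day 4. Sham-Ipsil, tissue from the place of a saline injection in sham-operated mice (3 libraries, with no day of its own in the labels), entered the estimate of spread and served as a zero for scores. The labels name no strain, age, sex or genotype and do not say whether replicates are different mice, nor whether both sides of a model came from the same animals. The p-values therefore measure the spread between these libraries, which may be technical. The sham group has no opposite side here, so the effect of the injection itself cannot be told apart from that of the agent within a side difference.

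LPC dissolves membranes and strips myelin at the place of injection, and myelin debris is then cleared by microglia and replaced by new oligodendrocytes that arise from precursors. L-NIO inhibits endothelial nitric oxide synthase, constricts vessels and leaves a small white matter stroke, in which axons, oligodendrocytes and vessels are damaged together. In both lesions resident microglia multiply and take on a phagocytic programme with lysosomal, lipid-handling and antigen-presenting genes.

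Library totals ran from 14896445 to 20916606 counts. Values are given as CPM, counts scaled to library size with trimmed mean of M-values factors. The myelin gene Mbp, which encodes myelin basic protein, lay between 5158 and 9633 CPM in all 15 libraries. Markers of neighbouring tissue were present too. Drd1, a receptor of striatal neurons, ranged from 23.7 to 120 CPM over the 12 libraries, and Ttr, made by the choroid plexus, from 20.2 to 1140 CPM. One library stood apart from its label. The score of 20 genes of damage-associated microglia (mean log2 CPM with the Sham-Ipsil mean at 0) was 3.80 and 3.10 in LPC-Ipsil replicates 1 and 2 and 0.26 in replicate 3, while the uninjected sides lay between -0.27 and 0.67 and LNIO-Ipsil between 1.82 and 2.54. Medians of gene lists with at least 3 tested members that this library moved by over 1.5 times or turned in sign are given with and without it. In bulk tissue, fewer cells of a type and less RNA per cell cannot be told apart.

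No gene passed an adjusted p of 0.05 for the interaction by edgeR's quasi-likelihood test, and the smallest adjusted p was 0.99999. At an unadjusted p under 0.05 there were 171 genes, 1.02% of those tested, with 97 positive (0.578%) and 74 negative (0.441%). Without any interaction a share of 0.05 of the tested genes would be expected at this level. The observed share was below that, so the 171 genes are described as a ranking and not as a set of established differences. DESeq2's Wald test also called 0 genes and put 160 at an unadjusted p under 0.05. The median standard error (SE) of an interaction was 0.28 log2, and a p that misses the threshold does not show that the side differences were alike. The median interaction over all tested genes was -0.03, with medians of -0.02 in the L-NIO arm and 0.01 in the LPC arm. Neither arm had a called gene in the edgeR fit without a replicate block. With replicate number as a block within each model, edgeR called 6 genes in the L-NIO arm and 26 in the LPC arm. The labels do not say whether the numbers pair the libraries, and the data do not settle it. In the LPC arm 2036 genes (12.1%) had an unadjusted p under 0.05 and the smallest adjusted p was 0.0629. In the L-NIO arm there were 1021 such genes (6.08%) and the smallest adjusted p was 0.186. DESeq2 called 700 genes in the LPC arm and 180 in the L-NIO arm.

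The arms were then sorted by size for the 171 genes. An interaction was assigned to 1 arm where that arm's side difference was at least 2 times the other in absolute log2. The LPC arm held 95 genes (55.6%), the L-NIO arm 20 (11.7%), and 56 (32.7%) had side differences of comparable size and opposite sign. None had comparable side differences of the same sign, a class that held 37.5% of all tested genes. Over all tested genes the LPC arm held 32.2%, the L-NIO arm 19.6% and opposite arms 10.7%. Sorted by tissue instead, 88 of the 171 (51.5%) differed mainly between the 2 injected sides and 29 (17%) mainly between the 2 uninjected sides. The other 54 (31.6%) differed in opposite directions on the 2 sides. Over all tested genes these classes held 32.2%, 21.9% and 10.5%, and 35.3% had comparable differences of the same sign on both sides. The sorting uses the same values as the interaction and carries no test.

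**Figure D1:**
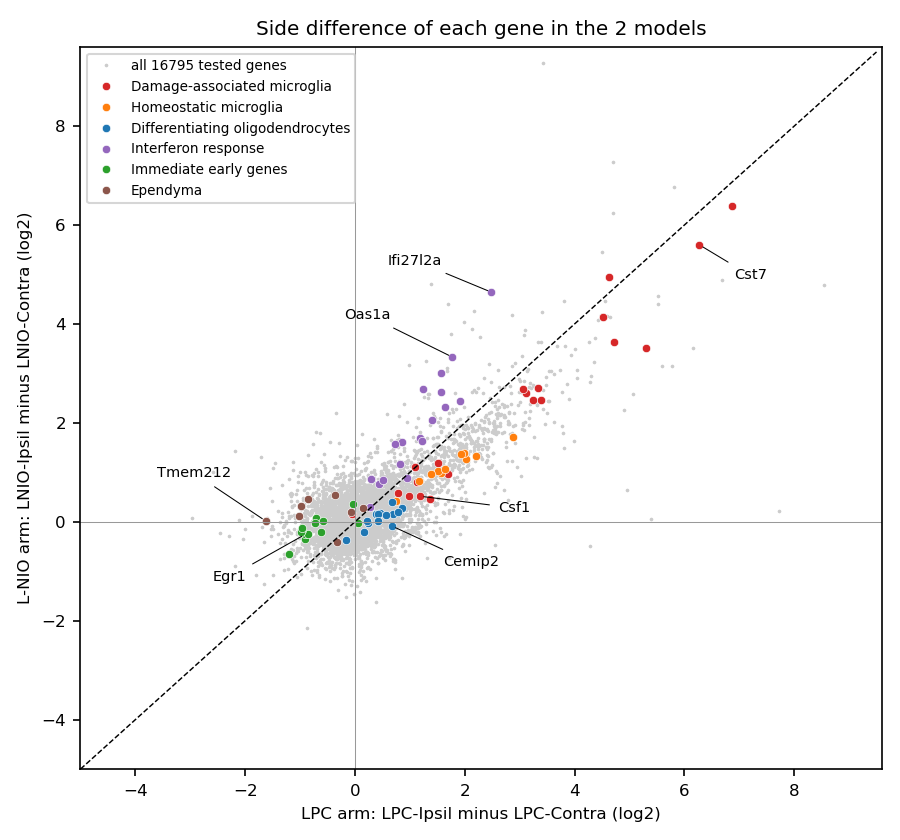
Side difference of each of the 16795 tested genes (grey points) in the LPC arm (horizontal axis, log2) and in the L-NIO arm (vertical axis, log2), with the members of 6 gene lists coloured and the dashed line where both are equal. Microglial genes lie below the line far from 0 on both axes, interferon response genes lie above it, and immediate early genes lie left of 0 near a vertical value of 0. The grey point at the top is Lcn2, whose LNIO-Contra libraries held 0 reads.

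Among the genes with average log2 CPM of at least 1, the 10 positive and 10 negative interactions with the smallest p are described here, all of them short of the adjusted threshold. Values are given ± SE with, for some, the 95% interval of the edgeR fit, which is not adjusted for the number of genes. Their sign was the same in all 25 alternative settings and left-out libraries. The genes were picked for the smallest p in these same libraries, which favours a steady sign, so it is no separate support. Of the 20 genes, 13 belonged to the LPC arm, 4 to the L-NIO arm and 3 to both with opposite signs.

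The L-NIO arm held 3 positive genes. Ccl19, a chemokine that attracts cells bearing the receptor CCR7, had 16.2, 24.4 and 12.2 CPM in LNIO-Ipsil and 2.82, 6.19 and 8.72 in LNIO-Contra. It had 6.10, 12.7 and 8.59 CPM in LPC-Ipsil and 11.1, 23.4 and 12.1 in LPC-Contra. The L-NIO libraries were separated by side and the LPC libraries overlapped. The interaction was 2.34 ± 0.59 log2 (SE, 95% interval 1.07 to 3.60), from 1.58 in the L-NIO arm and -0.76 in the LPC arm. The uninjected sides took part in it, with a log2 difference of -1.40 between LNIO-Contra and LPC-Contra.

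Pltp, which transfers phospholipids between lipoproteins, had 30.6, 24.6 and 29.1 CPM in LNIO-Ipsil against 17.2, 21.2 and 19.1 in LNIO-Contra. In the LPC model it had 33.6, 33.8 and 28.8 CPM on the injected side and 33.6, 32.6 and 49.6 on the other. The 3 LNIO-Contra libraries were the lowest of the 12, and the interaction of 0.82 ± 0.24 (95% interval 0.29 to 1.34) came with almost no difference between the injected sides (-0.19). Tm4sf1, a membrane protein of endothelium, had an interaction of 0.72 ± 0.26, with 13.6 to 13.7 CPM in LNIO-Ipsil and 8.06 to 10.5 in LNIO-Contra. Its LPC libraries overlapped by side.

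Positive interactions of the LPC arm were genes lower on the LPC-injected side and level in the L-NIO model. Myl4, a myosin light chain, had 7.06, 5.24 and 9.55 CPM in LPC-Ipsil and 14.2, 17.7 and 21.5 in LPC-Contra. The L-NIO model had 18.6, 16.1 and 16.4 CPM on the injected side and 15.4, 14.9 and 24.2 on the other. LPC-Ipsil was thus below every other library, replicate 3 included, and the interaction was 1.20 ± 0.40 (95% interval 0.34 to 2.06) from an LPC arm of -1.29 and an L-NIO arm of -0.09.

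Ankrd34b, an ankyrin repeat protein, showed the same form at a smaller size, with 11.05, 11.9 and 14.7 CPM in LPC-Ipsil and 16.8 to 20.4 in the other 9 libraries. Its interaction was 0.57 ± 0.19, and the L-NIO arm was 0.00. Pde9a, a phosphodiesterase that breaks down cyclic GMP, had 14.2 to 15.8 CPM in LPC-Ipsil and 18.0 to 24.5 in the rest, with an interaction of 0.45 ± 0.16. Slc25a18, a mitochondrial glutamate carrier, had 17.7 to 21.7 CPM in LPC-Ipsil and 25.3 to 44.7 in the rest, with an interaction of 0.79 ± 0.27. In these 4 genes the LPC-Ipsil libraries did not overlap any of the other 3 groups.

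The other 3 leading positive genes were scarcer or more scattered. Ovol2, a zinc finger transcription factor, had 1.75 to 2.18 CPM in LPC-Ipsil and 2.61 to 5.02 elsewhere, with an interaction of 1.23 ± 0.37. Catsperz, a subunit of a sperm calcium channel, had an interaction of 1.31 ± 0.44 at 0.85 to 2.77 CPM. Gtpbp4, a nucleolar GTPase of ribosome assembly, had the largest of the 20 values, 3.61 ± 1.21, but its libraries ranged from 37.1 to 542 CPM and overlapped by side in both models.

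Negative interactions of the LPC arm were genes higher on the LPC-injected side and level in the L-NIO model. Fnip2, a partner of folliculin in nutrient signalling, had 36.8, 34.9 and 30.6 CPM in LPC-Ipsil and 23.1, 23.3 and 25.9 in LPC-Contra. The L-NIO model had 27.2, 29.4 and 27.0 CPM on the injected side and 29.1, 28.1 and 26.9 on the other. LPC-Ipsil was above and LPC-Contra below all L-NIO libraries, and the interaction was -0.51 ± 0.14 (95% interval -0.82 to -0.21) from 0.50 in the LPC arm and -0.01 in the L-NIO arm.

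Alox5, the 5-lipoxygenase that starts leukotriene synthesis, had 7.12, 3.69 and 3.51 CPM in LPC-Ipsil and 1.20, 1.87 and 1.30 in LPC-Contra. In the L-NIO model it had 1.45, 2.28 and 2.38 CPM on the injected side and 1.78, 1.75 and 1.65 on the other, which overlapped. The LPC side difference was 1.71 log2 and the L-NIO one 0.24, giving an interaction of -1.47 ± 0.48 (95% interval -2.50 to -0.44). All 3 LPC-Ipsil libraries, including the one with a low microglial score, lay above the other 9.

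Cemip2, a transmembrane protein linked to hyaluronan turnover, had 21.7, 26.4 and 31.5 CPM in LPC-Ipsil and 13.1 to 21.2 in the other 9 libraries, with an interaction of -0.76 ± 0.25. Fam107b had 27.9 to 30.7 CPM in LPC-Ipsil and 14.6 to 20.8 elsewhere, with an interaction of -0.56 ± 0.20. Rap2a, a small GTPase of the Ras family, had 121 to 138 CPM in LPC-Ipsil and 88.6 to 110 elsewhere, with an interaction of -0.42 ± 0.16. For these genes too, LPC-Ipsil stood clear of the other groups in all 3 libraries.

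Jpt2, a protein of calcium signalling, had an interaction of -0.75 ± 0.27 with 9.55 to 16.8 CPM in LPC-Ipsil and 6.48 to 8.17 elsewhere. Rnf122, a ubiquitin ligase, had an interaction of -0.86 ± 0.30, with 18.5 to 25.2 CPM in LPC-Ipsil and 9.19 to 16.0 elsewhere. Or2y1g, annotated as an olfactory receptor, was the 1 negative gene of the L-NIO arm. It had 0.613 to 1.001 CPM in LNIO-Ipsil and 1.46 to 3.76 in the other groups, with an interaction of -1.52 ± 0.56.

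**Figure D2:**
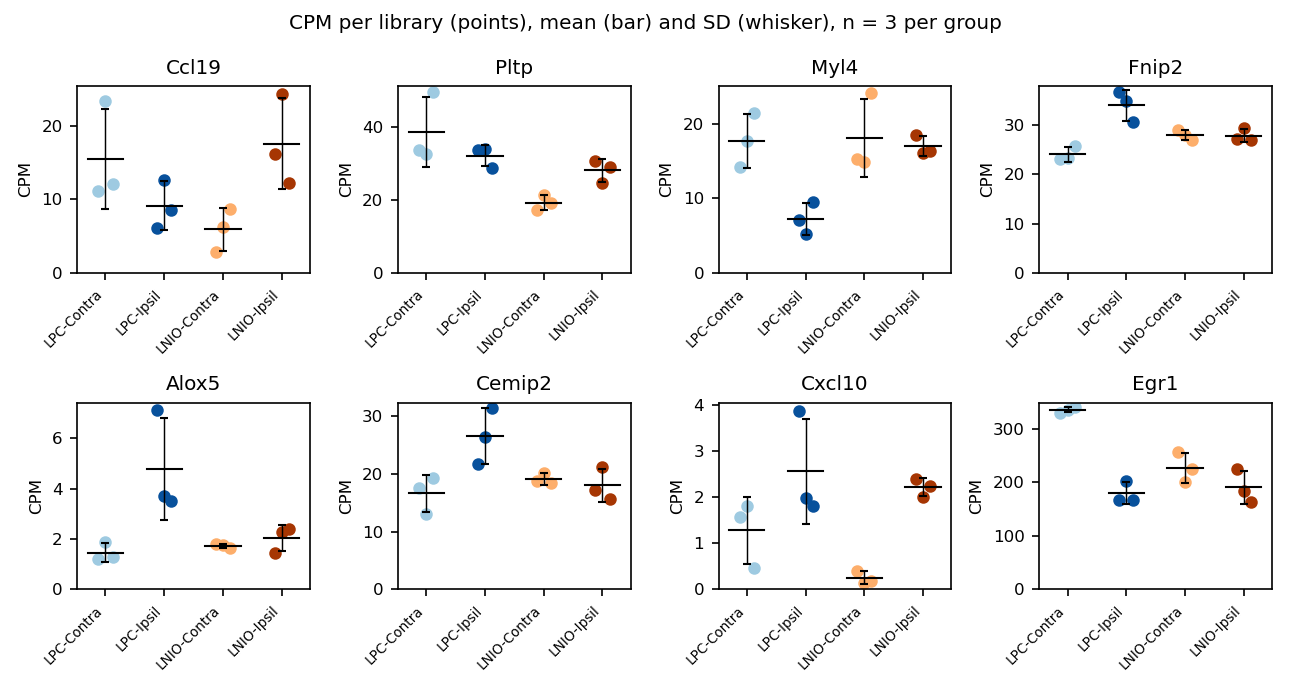
CPM in each library (points) of 8 genes in the 4 groups, with the mean (horizontal bar) and SD (whisker) of 3 libraries. Myl4 is low and Fnip2, Alox5 and Cemip2 are high in LPC-Ipsil alone, while Ccl19, Pltp and Cxcl10 have their lowest mean in LNIO-Contra and Egr1 is highest in LPC-Contra.

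Opposite side differences with no overlap by side in either model were rare, 14 of the tested genes (0.0834%), of which 9 had an unadjusted interaction p under 0.05. Pipox and Tmem43 were the leading ones. Pipox, a peroxisomal oxidase of sarcosine and pipecolate, had 3.34, 2.89 and 3.12 CPM in LNIO-Ipsil and 5.70, 3.97 and 4.33 in LNIO-Contra. In the LPC model it had 3.98, 4.54 and 5.44 CPM on the injected side and 3.39, 3.74 and 2.92 on the other. The side order was reversed between the models, and the interaction was -1.05 ± 0.35 (95% interval -1.79 to -0.31). Tmem43, a protein of the inner nuclear membrane, had the same form with 25.0 to 26.9 CPM in LNIO-Ipsil, 27.1 to 31.0 in LNIO-Contra, 29.0 to 35.0 in LPC-Ipsil and 26.3 to 28.5 in LPC-Contra. Its interaction was -0.41 ± 0.14.

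Microglial genes were higher on the injected side in both models, with the larger log2 difference in the LPC arm. For 11 tested genes of homeostatic microglia the median side difference was 1.64 in the LPC arm and 1.07 in the L-NIO arm, and all 11 interactions were negative with a median of -0.57. For 20 genes of damage-associated microglia the medians were 3.09 and 2.46, and the interaction was negative in 17 and positive in 3, with a median of -0.50. Over all tested genes 43.4% of interactions were positive. Just 1 of these 31 genes, Csf1, had an unadjusted interaction p under 0.05 (negative background 0.441%).

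The arms differed in how firmly their libraries separated. In the L-NIO arm 11 of 11 homeostatic and 17 of 20 damage-associated genes had every injected library above every uninjected one (7.91% of all tested genes). In the LPC arm the counts were 3 of 11 and 2 of 20 (7.06% of all tested genes), since LPC-Ipsil replicate 3 overlapped LPC-Contra. By the edgeR test the LPC arm had 11 of 11 and 19 of 20 genes higher at an unadjusted p under 0.05 (8.53% of all tested genes), and the L-NIO arm 9 of 11 and 16 of 20 (4.83%).

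P2ry12, a purine receptor of homeostatic microglia, had 236, 202 and 66.0 CPM in LPC-Ipsil and 53.8, 57.6 and 58.5 in LPC-Contra. It had 125, 94.9 and 148 CPM in LNIO-Ipsil and 65.1, 58.1 and 61.9 in LNIO-Contra. Both models were separated by side, and 2 LPC-Ipsil libraries exceeded all others while the third lay near the uninjected level. The interaction was -0.57 ± 0.46 (95% interval -1.56 to 0.41) from 1.57 and 0.99.

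Csf1, the growth factor of microglia and macrophages, had 105, 85.9 and 48.4 CPM in LPC-Ipsil and 37.4, 35.1 and 33.2 in LPC-Contra. It had 39.7, 51.5 and 42.0 CPM in LNIO-Ipsil and 31.6, 30.4 and 31.0 in LNIO-Contra. Each model was separated by side, with a side difference of 1.18 in the LPC arm and 0.52 in the L-NIO arm. The interaction was -0.66 ± 0.29 (95% interval -1.28 to -0.042).

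Effector genes of the phagocytic state had large side differences and interactions with wide errors. Gpnmb, a membrane glycoprotein of lipid-laden phagocytes, had 130, 119 and 2.24 CPM in LPC-Ipsil, 19.2, 29.4 and 16.8 in LNIO-Ipsil, and 1.36 to 2.87 on the uninjected sides. Replicate 3 of LPC-Ipsil was thus at the uninjected level for a gene that its 2 companions held above every L-NIO library. The interaction was -1.77 ± 1.56. Cst7, a cysteine protease inhibitor, had side differences of 6.27 and 5.599 in the LPC and L-NIO arms and an interaction of -0.68 ± 2.11. Trem2, the lipid-sensing receptor of microglia, had 3.25 and 2.46 with an interaction of -0.79 ± 0.96, and Spp1 (osteopontin) had 4.52 and 4.14 with -0.38 ± 1.32. Without LPC-Ipsil replicate 1 these 3 interactions were positive, 0.65 for Cst7, 0.010 for Trem2 and 0.28 for Spp1. The sign also turned for Cst7 without LNIO-Contra replicate 1 (0.087) and in limma on log2(FPKM + 0.1), and for Spp1 with the replicate block (0.17) and in limma at both pseudocounts. Apoe, the lipid carrier, had 1.09 and 1.10 with an interaction of 0.01 ± 0.58.

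Without LPC-Ipsil replicate 3 the edgeR test called 948 genes in the LPC arm (5.64%), 900 of them higher (5.36%), and 371 in the L-NIO arm (2.21%), all higher, with 0 interactions called and 626 at an unadjusted p under 0.05 (3.73%; 152 positive, 0.905%, and 474 negative, 2.82%). The share of 3.73% is also below the 0.05 expected at that level without any interaction. Of those 626, 411 (65.7%) fell to the LPC arm, 12 (1.92%) to the L-NIO arm, 58 (9.27%) to opposite arms and 145 (23.2%) to comparable arms of the same sign. With every library in the fit these classes held 32.2%, 19.6%, 10.7% and 37.5% of all tested genes. The L-NIO log2 differences hardly moved in the fit without LPC-Ipsil replicate 3 (damage-associated median 2.46 in both), and the estimate of spread is shared by all libraries. All 11 homeostatic genes were then called higher in the LPC arm and 8 in the L-NIO arm, with a median interaction of -0.98 and 9 of 11 negative at an unadjusted p under 0.05. The damage-associated genes had 19 and 14 of 20 called higher in the LPC and L-NIO arms, a median interaction of -1.002 and 8 negative at that level. Replicate 3 was singled out by its low damage-associated score. Larger LPC side differences and more negative interactions of microglial and phagocytic genes without it therefore follow from that choice and are no separate support. Csf1 had an interaction of -0.92 ± 0.19 and Cx3cr1, the fractalkine receptor, -1.203 ± 0.27, both at an adjusted p of 0.702, against -0.66 and -0.75 with all libraries. Leaving out LPC-Ipsil replicate 1 instead gave -0.41 for Csf1 and -0.23 for Cx3cr1, moved the damage-associated median to 0.12, and that of homeostatic genes to -0.11. The damage-associated median was -0.84 without LPC-Contra replicate 2 and -0.83 without LNIO-Ipsil replicate 2.

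**Figure D3:**
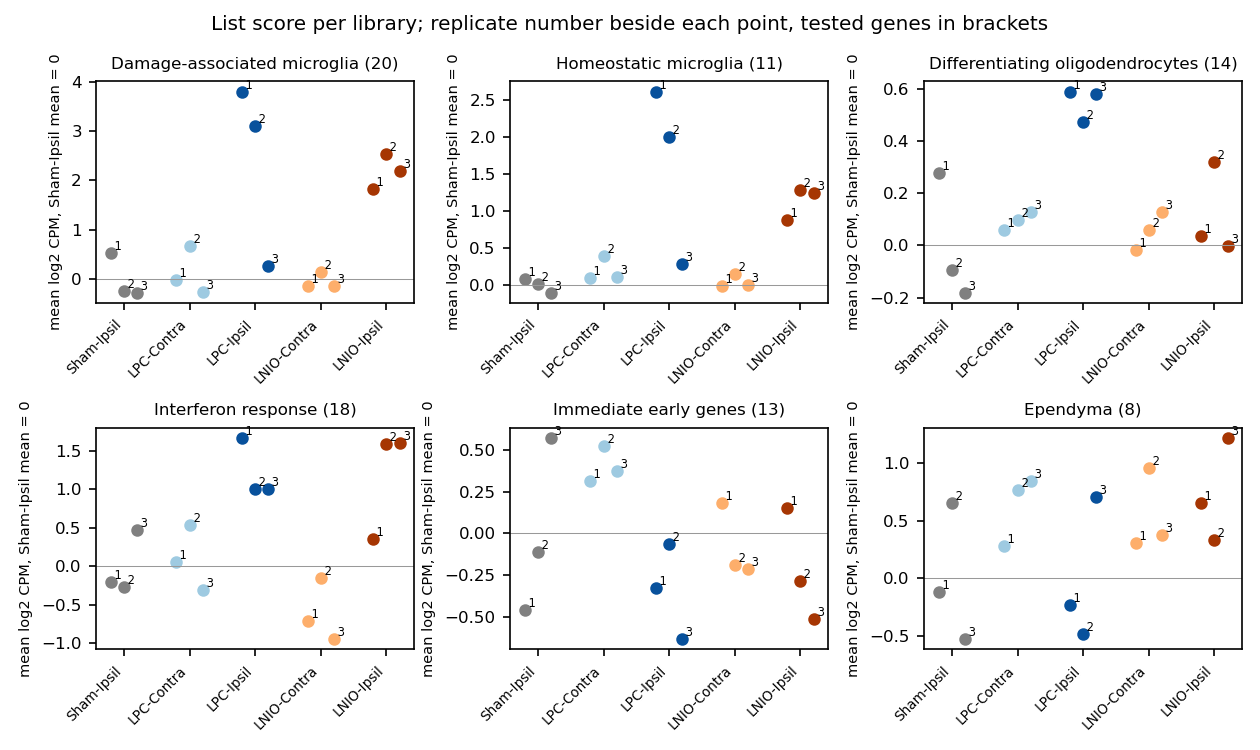
Score of 6 gene lists in each library (mean over tested members of log2 CPM, with the Sham-Ipsil mean at 0), with the replicate number beside each point. LPC-Ipsil replicate 3 lies at 0.26 for damage-associated microglia against 3.80 and 3.10 in its group, and at 0.58 for differentiating oligodendrocytes against 0.59 and 0.48.

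Genes that carry out phagocytosis had the same form. Of 16 phagocyte receptors and kinases 14 interactions were negative (median -0.54, arms 2.87 for LPC and 2.49 for L-NIO). Of 13 lysosomal genes all 13 were negative, with a median of -0.33 and arms of 1.13 and 0.58. The LPC arm had 13 of 13 higher at an unadjusted p under 0.05 (8.53% of all tested genes) and the L-NIO arm 3 of 13 (4.83%). Without LPC-Ipsil replicate 3 the medians were -1.05 for the phagocyte list and -0.78 for the lysosomal one, and without LPC-Contra replicate 2 they were -0.82 and -0.595. Without LNIO-Ipsil replicate 1 the lysosomal median was -0.19. Ctsl, a lysosomal protease, had 318, 247 and 122 CPM in LPC-Ipsil, 86.9 to 133 in LPC-Contra, 141 to 163 in LNIO-Ipsil and 92.9 to 115 in LNIO-Contra. The LPC libraries overlapped by side through replicate 3, the L-NIO libraries did not, and the interaction was -0.63 ± 0.36.

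Complement genes had a median interaction of -0.50 with 11 of 12 negative, and -0.94 without LPC-Ipsil replicate 3. C3, the central complement protein, had -2.04 ± 1.37 with overlap by side in both models. Lipid efflux and storage genes had a median of -0.29 with 11 of 14 negative, led against that direction by Pltp, and -0.499 without LPC-Ipsil replicate 3. Lipa, the lysosomal lipase that frees cholesterol, had 70.8, 48.2 and 29.7 CPM in LPC-Ipsil and 22.2 to 28.4 in LPC-Contra. It had 23.7 to 38.3 CPM in LNIO-Ipsil and 22.9 to 25.2 in LNIO-Contra, which overlapped, and the interaction was -0.66 ± 0.35. Cholesterol synthesis genes had 19 of 21 negative interactions at a median of -0.09 with all libraries, and 16 of 21 positive at 0.046 without LPC-Ipsil replicate 3. Without LPC-Ipsil replicate 1 the medians of the phagocyte and complement lists were 0.25 and 0.20, while the lysosomal median was -0.07 and that of lipid efflux -0.06. Of the myeloid markers that could mark other cells, 5 infiltrating monocyte genes had a median interaction of -0.17 and 8 border macrophage genes -0.03, although the monocyte list's arm medians had the other order (1.31 for L-NIO and 0.70 for LPC). Without LPC-Ipsil replicate 3 these medians were -0.26 and -0.31, and without replicate 1 that of the monocyte list was 0.502. The summed level of the monocyte list was 65.2 to 89.3 CPM in LNIO-Ipsil and 68.4 to 103 in LPC-Ipsil, and its part in the result was not tested.

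Interferon response genes went the other way, with 17 of 18 interactions positive and a median of 0.62. The median side difference was 1.67 in the L-NIO arm, where 16 of 18 genes were higher at an unadjusted p under 0.05 (4.83% of all tested genes), and 1.20 in the LPC arm, where 9 were (8.53%). By separation the arms were alike, with every injected library above every uninjected one in 12 of 18 genes in each. Over all tested genes that share was 7.91% for L-NIO and 7.06% for LPC. The median interaction was 0.39 without LNIO-Contra replicate 3, 1.06 without LNIO-Contra replicate 2 and 0.95 without LNIO-Ipsil replicate 1. None reached an unadjusted interaction p under 0.05 (positive background 0.578%). The injected sides were close, with a median LNIO-Ipsil minus LPC-Ipsil difference of 0.06, and the uninjected sides were apart, with a median LNIO-Contra minus LPC-Contra difference of -0.72. The list scores were -0.71, -0.15 and -0.95 in LNIO-Contra and 0.06, 0.53 and -0.31 in LPC-Contra, so the groups overlapped, and the Sham-Ipsil libraries ran from -0.26 to 0.47.

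Ifi27l2a, an interferon-induced mitochondrial protein, had 2.84, 18.3 and 10.4 CPM in LNIO-Ipsil and 0.518, 0.520 and 0.183 in LNIO-Contra. It had 11.95, 3.73 and 3.57 CPM in LPC-Ipsil and 0.835, 2.04 and 0.519 in LPC-Contra. Both models were separated by side, and the interaction was 2.16 ± 1.01 (95% interval -0.0032 to 4.31). Irf7, the transcription factor that amplifies type I interferon, had 3.51, 17.1 and 9.67 CPM in LNIO-Ipsil and 0.670 to 2.27 in LNIO-Contra, with 7.50 to 13.1 and 2.01 to 6.42 in LPC-Ipsil and LPC-Contra. Its interaction was 1.46 ± 0.79, from 2.69 in the L-NIO arm and 1.23 in the LPC arm. Oas1a, which senses double-stranded RNA, had 2.78, 9.34 and 9.72 CPM in LNIO-Ipsil and 0.461 to 0.946 in LNIO-Contra, with an interaction of 1.55 ± 0.97.

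Because these genes had interactions of 1 sign, their promoters were searched for a known element, and the stretch that holds it is shown for 3 of them. The letters GAAANNGAAA, the core of the interferon-stimulated response element, were searched on both strands from 250 bases before to 50 after the start in RefSeq promoters of build GRCm38.p6. They were found in 8 of the 13 list members with an entry, and in 3.99% of the 27025 genes in that table. Each line gives 100 bases ending before the start, 5′ to 3′ on the gene's strand, with every match in capitals (overlapping matches run together). They come from chr19:34640734-34640833 (plus strand) for Ifit1, chr4:156200855-156200954 (minus strand) for Isg15 and chr5:120907526-120907625 (minus strand) for Oas1a.
Ifit1: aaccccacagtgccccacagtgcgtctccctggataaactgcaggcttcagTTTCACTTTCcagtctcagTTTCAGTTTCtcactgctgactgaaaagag
Isg15: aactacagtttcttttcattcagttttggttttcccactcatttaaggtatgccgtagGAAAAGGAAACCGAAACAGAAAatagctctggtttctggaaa
Oas1a: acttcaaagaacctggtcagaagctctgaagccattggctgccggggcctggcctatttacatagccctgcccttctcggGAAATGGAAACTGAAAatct
Ifit1, which blocks translation of foreign RNA, had an interaction of 0.51 ± 0.82, and Isg15, a ubiquitin-like modifier, 0.58 ± 0.65. A match describes the letters of the window and does not show binding. The 5 list members with an entry and no match (Ifit2, Irf7, Oasl2, Ifi44 and Xaf1) also had positive interactions, of 0.32 to 1.46.

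Chemokines had a median interaction of 0.29 with 7 of 11 positive, from arms of 3.10 for L-NIO and 1.75 for LPC. Cxcl10, an interferon-induced attractant of T cells, had 2.39, 2.002 and 2.23 CPM in LNIO-Ipsil and 0.403, 0.142 and 0.183 in LNIO-Contra. It had 3.86, 1.98 and 1.81 CPM in LPC-Ipsil and 1.57, 1.81 and 0.454 in LPC-Contra. The injected sides overlapped and LNIO-Contra was below every other library. The interaction was 2.19 ± 0.93 (95% interval 0.20 to 4.18), with a difference of -2.39 between the uninjected sides. Ccl12, a monocyte attractant, had 2.05 ± 1.04, from 2.17 to 5.06 CPM in LNIO-Ipsil and 0.115 to 0.366 in LNIO-Contra, while the LPC libraries overlapped. The list median turned to -0.23 without LPC-Contra replicate 2. The 10 genes of MHC class I had a median interaction of 0.10 and the 7 of class II -0.16, and 8 cytokine genes had -0.38. The sign of all 3 turned with 1 library left out. The class I median was -0.39 without LNIO-Ipsil replicate 2, -0.31 without LPC-Ipsil replicate 3 and 0.73 without LPC-Ipsil replicate 1. The class II median was 0.97 without LPC-Ipsil replicate 1, and the cytokine median was -0.83 without LPC-Ipsil replicate 3 and 0.045 without replicate 1.

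Genes of the oligodendrocyte lineage had mostly negative interactions with all libraries, and the arms of the mature stage depended on LPC-Ipsil replicate 3. For 14 genes of differentiating oligodendrocytes all 14 interactions were negative with a median of -0.33, and 3 had an unadjusted p under 0.05 (negative background 0.441%). The LPC arm held 10 of 14 genes higher at an unadjusted p under 0.05 (8.53% of all tested genes) and the same number fully separated (7.06%), with a median side difference of 0.45. The L-NIO arm had 0 higher and 1 lower (1.25% of all tested genes were lower), with a median of 0.14. The score was 0.59, 0.48 and 0.58 in LPC-Ipsil and 0.06 to 0.13 in LPC-Contra, and LNIO-Ipsil (0.04, 0.32 and 0.00) overlapped LNIO-Contra. LPC-Ipsil replicate 3 thus resembled its group in this list, and without it the median interaction was -0.34. Over the 25 alternatives the median stayed between -0.45 and -0.29.

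Besides Cemip2, the genes at that level were Rras2 and Itpr2. Rras2, a Ras-like GTPase, had 28.6, 27.2 and 34.0 CPM in LPC-Ipsil and 15.1, 20.3 and 17.1 in LPC-Contra. It had 26.7, 23.7 and 23.01 CPM in LNIO-Ipsil and 22.4, 18.4 and 23.3 in LNIO-Contra. LPC-Ipsil was the highest group without overlap, and the interaction was -0.58 ± 0.23 (95% interval -1.06 to -0.10). Itpr2, a calcium release channel of newly committed oligodendrocytes, had 47.2 to 58.9 CPM in LPC-Ipsil and 22.6 to 43.3 elsewhere, with an interaction of -0.59 ± 0.26. Gpr17, a receptor that marks the committed precursor stage, had 250, 183 and 188 CPM in LPC-Ipsil and 137, 104 and 142 in LPC-Contra, against 83.3 to 170 and 86.8 to 121 in LNIO-Ipsil and LNIO-Contra. Its interaction was -0.54 ± 0.35.

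Precursor genes had 11 of 12 negative interactions with a median of -0.29, from 0.27 in the LPC arm and -0.03 in the L-NIO arm. Pdgfra, the growth factor receptor of precursors, had 72.9 to 78.9 CPM in LPC-Ipsil, 49.8 to 68.8 in LPC-Contra, and overlap by side in the L-NIO model, with an interaction of -0.33 ± 0.20. Genes of DNA replication and mitosis had 17 of 18 negative interactions and a median of -0.34, with arms of 0.61 for LPC and 0.23 for L-NIO. The median was -0.54 without LPC-Ipsil replicate 3 and -0.12 without replicate 1. Ccna2, a cyclin of S phase, had -0.45 ± 0.27.

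Mature oligodendrocyte and myelin genes had a median interaction of -0.32 with 17 of 20 negative, and here the arms were -0.21 for L-NIO and 0.06 for LPC. Mbp had 5158, 7107 and 5421 CPM in LNIO-Ipsil and 7424, 7180 and 7555 in LNIO-Contra, which were separated. It was the 1 gene of the 20 separated in that direction, as were 880 of all 16795 tested genes. In the L-NIO arm 0 of 20 were lower at an unadjusted edgeR p under 0.05 (1.25% of all tested genes). In the LPC model Mbp had 6808, 6424 and 9633 CPM in LPC-Ipsil and 7006, 6952 and 7870 in LPC-Contra, which were not separated. The highest value belonged to LPC-Ipsil replicate 3. The interaction of Mbp was -0.39 ± 0.26, and without that library the median of the myelin list was -0.04 with 11 of 20 negative. The arm medians of the list were then close, -0.15 for LPC and -0.21 for L-NIO. With a replicate block without LPC pair 3 the list median was 0.057.

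Immediate early genes, which neurons switch on within minutes of activity, had 12 of 13 positive interactions and a median of 0.61. Their LPC arm had a median of -0.86 with 9 of 13 genes lower at an unadjusted p under 0.05 (3.59% of all tested genes) and 9 fully separated (6.59%). The L-NIO arm had a median of -0.16 with 0 at that level. Egr1, a zinc finger transcription factor, had 167, 203 and 167 CPM in LPC-Ipsil and 331, 336 and 340 in LPC-Contra. It had 224, 184 and 164 CPM in LNIO-Ipsil and 256, 200 and 226 in LNIO-Contra. The injected sides overlapped and LPC-Contra was above every other library, so that the interaction of 0.65 ± 0.25 (95% interval 0.11 to 1.19) came with a difference of -0.56 between the uninjected sides and 0.09 between the injected ones. Fosl2, a partner in the AP-1 complex, had 18.1 to 24.1 CPM in LPC-Ipsil and 30.4 to 44.2 in LPC-Contra, and 21.8 to 25.8 and 21.9 to 27.2 in the L-NIO model, with an interaction of 0.69 ± 0.30.

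The immediate early score was 0.32, 0.52 and 0.38 in LPC-Contra and -0.22 to 0.18 in LNIO-Contra, without overlap. The Sham-Ipsil libraries spread from -0.46 to 0.57, wider than either. Neuronal genes had 11 of 12 positive interactions at a median of 0.16, from arms of -0.22 for L-NIO and -0.33 for LPC. At an unadjusted p under 0.05, 6 of 12 were lower in the LPC arm (3.59% of all tested genes) and 1 in the L-NIO arm (1.25%). By full separation the arms were closer, with 5 of 12 lower in the LPC arm (6.59%) and 4 in the L-NIO arm (880 of all 16795 tested genes). Snap25, a synaptic vesicle fusion protein, had 1278 to 1539 CPM in LPC-Ipsil and 1765 to 1965 in LPC-Contra without overlap, and an interaction of 0.22 ± 0.20. Cortical excitatory genes had a median of 0.10. Striatal genes had 10 of 10 negative interactions with a median of -0.40, which was -0.026 without LNIO-Ipsil replicate 1, -0.10 without LNIO-Contra replicate 2, -0.17 without LPC-Contra replicate 3 and -0.95 without LNIO-Ipsil replicate 2. Penk, a striatal neuropeptide, ranged from 92.9 to 285 CPM within LNIO-Ipsil. The 8 neuroblast genes had a median of -0.17.

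Endothelial genes had positive interactions in 12 of 12 with a median of 0.36 and no gene at an unadjusted p under 0.05. The uninjected sides differed by a median of -0.66 and the injected sides by -0.32, both lower in the L-NIO model. Nos3, the enzyme that L-NIO inhibits, had 7.69, 3.003 and 4.66 CPM in LNIO-Ipsil and 5.24, 2.70 and 3.35 in LNIO-Contra. It had 6.16, 4.30 and 4.35 CPM in LPC-Ipsil and 5.27, 4.67 and 7.07 in LPC-Contra. All 4 groups overlapped, and the interaction was 0.64 ± 0.46. Flt1, a VEGF receptor, had 27.8, 56.9 and 99.7 CPM among the LPC-Contra libraries alone, against 27.5 to 31.6 in LNIO-Contra, with an interaction of 0.60 ± 0.43. The median of the list was 0.02 in the fit that blocked on replicate number without LPC pair 3, 0.11 without LPC-Contra replicate 3, 0.18 without LNIO-Ipsil replicate 1 and 0.603 without LNIO-Contra replicate 1. The 11 angiogenesis genes had a median of 0.30, 9 pericyte and smooth muscle genes 0.10, and 10 fibroblast and meningeal genes 0.24.

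Red blood cell genes had 4 of 4 negative interactions with a median of -0.74. Alas2, the first enzyme of haem synthesis in erythroid cells, had 3.98, 2.50 and 2.30 CPM in LPC-Ipsil and 1.04, 1.75 and 1.23 in LPC-Contra. It had 1.78 to 2.45 and 1.83 to 2.42 CPM in LNIO-Ipsil and LNIO-Contra. The LPC libraries were separated, the L-NIO libraries overlapped, and the interaction was -1.15 ± 0.45 (95% interval -2.11 to -0.19). The red blood cell score was -1.32, -0.06 and -1.11 in LPC-Contra, where replicates 1 and 3 lay below all other libraries of the comparison.

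Ependymal genes, from the ciliated lining of the ventricles, had 7 of 8 positive interactions and the highest list median, 1.03, from arms of 0.24 for L-NIO and -0.61 for LPC. Tmem212 had 0.664, 0.283 and 1.45 CPM in LPC-Ipsil and 2.24, 2.92 and 2.14 in LPC-Contra, with 1.89 to 2.63 and 1.44 to 3.22 in LNIO-Ipsil and LNIO-Contra. The LPC libraries were separated, and the interaction was 1.64 ± 0.74 (95% interval 0.051 to 3.23). Genes of cilia and axoneme motility had 11 of 12 positive interactions and a median of 0.64, which was 0.16 without LPC-Contra replicate 3, 0.31 without LNIO-Ipsil replicate 3 and 0.42 without LNIO-Contra replicate 3. The ependymal median was 0.63 and 0.62 without the first and second of these libraries. Spag17, a protein of the axoneme's central pair, had 2.65 ± 0.82 (95% interval 0.90 to 4.397) at 0.183 to 1.75 CPM, and Ak7, a ciliary adenylate kinase, had 1.22 ± 0.57.

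The choroid plexus list had the same sign, with 8 of 8 positive interactions and a median of 0.82, but with libraries that scattered within each group. Its summed level ran from 135 to 746 CPM in LNIO-Ipsil, 71.8 to 1260 in LNIO-Contra, 49.1 to 555 in LPC-Ipsil and 35.0 to 1090 in LPC-Contra. The choroid plexus median ranged from -1.13 without LPC-Contra replicate 3 to 2.91 without LNIO-Contra replicate 2, and was 2.22 without LPC-Ipsil replicate 3. The part of ventricle-lining tissue in the ependymal and ciliary values was not tested. LPC-Ipsil replicate 3 had the highest ependymal score of its group (0.71 against -0.24 and -0.49), and without it the ependymal median was 1.48.

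Reactive astrocyte genes had 8 of 15 positive interactions and a median of 0.02 from arms of 1.11 for L-NIO and 1.10 for LPC. At an unadjusted interaction p under 0.05, 2 of the 15 were positive (0.578% of all tested genes) and 0 were negative (0.441%). Without LPC-Ipsil replicate 3 the median was -0.36 with 10 of 15 negative, and without LPC-Ipsil replicate 1 it was 0.28. Gfap, the astrocyte filament, had side differences of 1.11 in the L-NIO arm and 1.41 in the LPC arm and an interaction of -0.30 ± 0.63. Lcn2, an iron-binding acute phase protein, had 238 reads in LNIO-Ipsil and 0 in LNIO-Contra over 3 libraries each, against 83 in LPC-Ipsil and 7 in LPC-Contra. Its 3 LNIO-Ipsil libraries held 1.11, 9.34 and 2.48 CPM, and no fold is given for it because a group is at 0. Astrocyte identity genes had a median interaction of 0.00. Matrix and scar genes had 12 of 17 negative at -0.09, where Lox, which crosslinks collagen, had -1.15 ± 0.85.

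**Figure D4:**
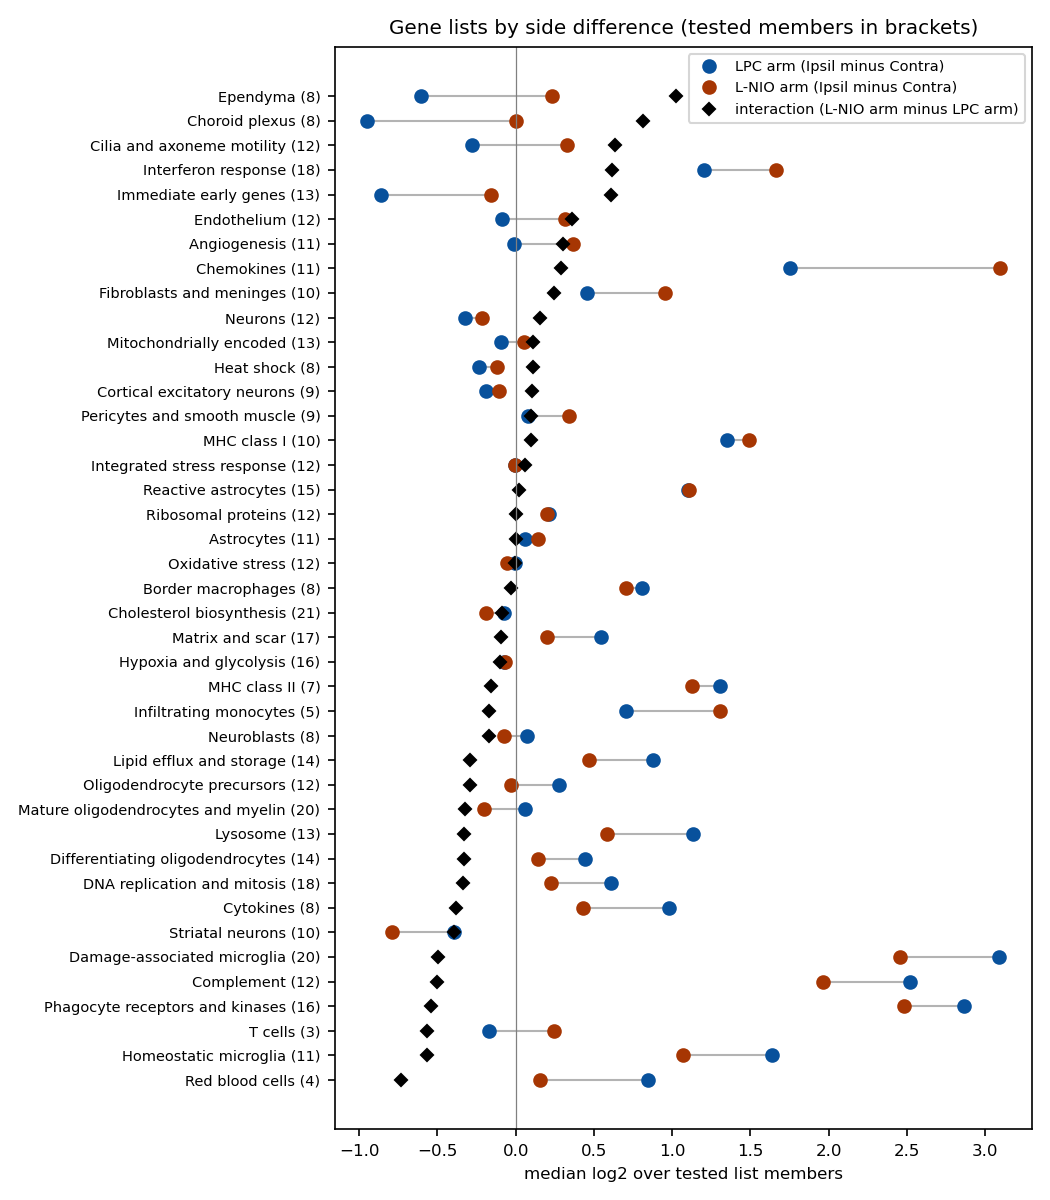
Median side difference of each gene list with at least 3 tested members in the LPC arm (blue) and in the L-NIO arm (brown), and the median interaction (black diamond), in log2. Lists are ordered by the interaction, from ependyma at 1.03 to red blood cells at -0.74, and microglial lists are high in both arms.

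Mitochondrially encoded transcripts had 13 of 13 positive at a median of 0.11, and LNIO-Ipsil held the library with the highest mitochondrial share (15.9%, others of the 5 groups 8.74% to 13.7%). The medians were 0.11 for heat shock, 0.06 for the integrated stress response, 0.00 for oxidative stress and for ribosomal proteins, and -0.10 for hypoxia and glycolysis. That of ribosomal proteins was -0.24 without LPC-Ipsil replicate 3, with 12 of 12 negative. In the same fit the medians were 0.17 for cortical excitatory neurons, -0.015 for fibroblasts and meninges, -0.077 for pericytes and smooth muscle, -0.16 for matrix and scar, -0.062 for astrocytes, -0.094 for oxidative stress and 0.042 for heat shock. Lymphoid and granulocyte lists were mostly below the filter, with 3 T cell genes tested (median -0.57, against arm medians of 0.25 for L-NIO and -0.17 for LPC), 2 neutrophil genes (0.17), 2 dendritic cell genes (0.17), 1 B cell gene (0.52) and 0 natural killer cell genes. Of the 41 lists with at least 3 tested members, 17 kept the sign of their median interaction in all 25 alternatives. These were homeostatic microglia, lysosome, T cells, interferon response, lipid efflux, precursors, differentiating oligodendrocytes, endothelium, matrix and scar, neurons, striatal neurons, neuroblasts, ependyma, cilia, red blood cells, DNA replication and immediate early genes. The sign of the other lists turned in at least 1 alternative.

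**Figure D5:**
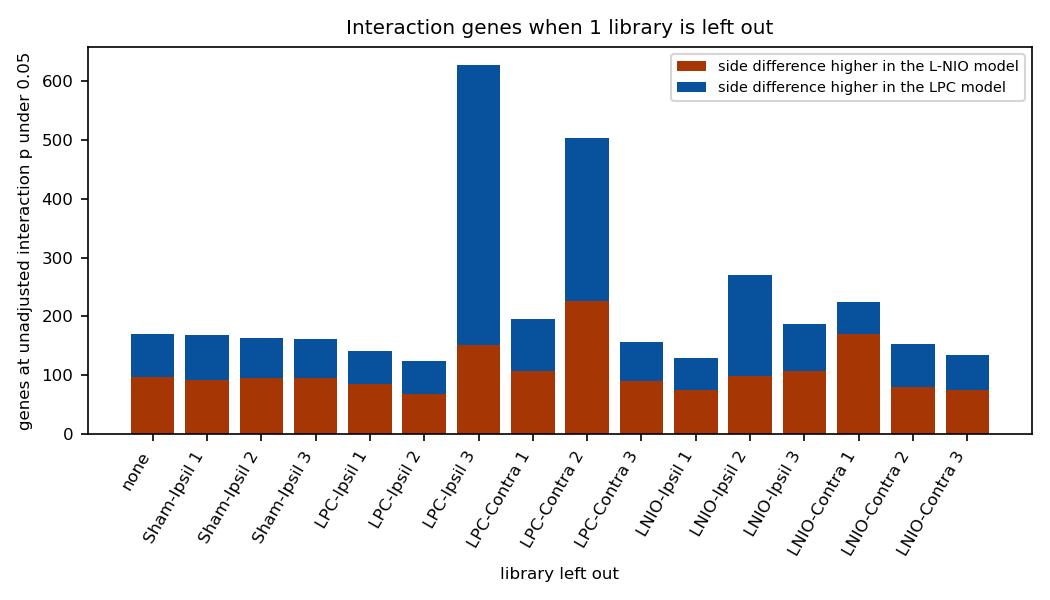
Number of genes at an unadjusted interaction p under 0.05 (vertical axis) with all libraries and with each library left out in turn (horizontal axis), split by the model with the higher side difference. The count is 171 with all libraries, 626 without LPC-Ipsil replicate 3 and 503 without LPC-Contra replicate 2.

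The number of genes at an unadjusted interaction p under 0.05 depended most on these 2 LPC libraries, as the plot of left-out libraries shows. With both left out, 1320 of 16795 genes had an unadjusted p under 0.05, 387 positive and 933 negative. None was called, at a smallest adjusted edgeR p of 0.225. This share lay above the 0.05 expected without any interaction, unlike the shares of 171 and 626 genes. The 2 libraries were left out together after the data were seen, so the higher share is no separate support. Of the 171 genes, 125 were also among the 626 (73.1% of the 171), and 100 among the 1320 (58.5% of the 171). Leaving out any 1 of the other 13 libraries gave 124 to 271.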

How the data were processed

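The deposited count table gives whole reads per gene symbol, and the deposited FPKM table holds values that the authors divided by transcript length and sequencing depth. Per the submitters' processing notes, HISAT2 2.2.1, R 4.4.2 and build GRCm39 were used. Counter, strandedness and gene models were not given in the sources used here, which leaves overlapping, antisense and near-identical genes uncertain. RNA was rRNA-depleted and poly(A)-purified, per the labels' protocols.

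The test was that of edgeR 4.0.16 under R 4.3.3 (quasi-likelihood, robust, TMM factors 0.966 to 1.06, filterByExpr with minimum count 10 and minimum total 15). One model held 15 libraries with 5 group means and no replicate block. Same-numbered L-NIO libraries deviated together (correlations 0.599, 0.356 and 0.249), but LNIO-Ipsil 3 also had 0.195 with LNIO-Contra 2. Same-numbered LPC libraries had -0.0357, 0.165 and 0.334. With 3 libraries in each group these values do not settle whether the numbers pair the samples. If they do, the main fit leaves that pairing out. P-values were adjusted over all 16795 genes by Benjamini-Hochberg, and called means adjusted p under 0.05. SE is the log2 value divided by the square root of F. Replicate pairs differed beyond sampling noise (chi-square per degree of freedom 10.1 to 63.7).

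The comparison and the 45 gene lists (468 members tested of 508) were chosen with earlier results of these data known. Genes named were the 10 with the smallest p in each direction at average log2 CPM of at least 1, up to 4 per list described and a fixed set; other mentions (Isg15, Ifit1, Ifit2, Ifi44, Oasl2, Xaf1) were chosen after their values were seen. One gene that the rule selects is not reported here. Alternatives were DESeq2 1.42.0, its size factors, other filters, 12 libraries only, a replicate block, limma 3.58.1 on log2(FPKM + 0.1) and + 1, and left-out libraries. Scripts were tested on simulated data.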

Additional observations from a re-analysis of the deposited data

Results flagged for a closer look

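Pipox and Tmem43, among the genes named, had side differences of opposite sign in the 2 models with no overlap between sides in either. The interaction of Pipox was -1.05 and that of Tmem43 was -0.41. The difference itself was tested by the edgeR interaction, which neither gene passed after adjustment (95% intervals -1.79 to -0.31 and -0.72 to -0.11, unadjusted). Such a pattern was found in 14 of 16795 genes (0.0834%).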

How the results depend on the processing

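The interaction had 0 called genes in all 25 alternatives. Genes at an unadjusted p under 0.05 numbered 301 with no filter on low counts, 586 with a replicate block without LPC pair 3, 124 to 626 with each library left out in turn and 1320 without LPC-Ipsil 3 and LPC-Contra 2 together, an alternative chosen after seeing the data. The L-NIO side difference had 180 called genes by DESeq2, 6 with a replicate block, 303 with that block without LPC pair 3, 394 without both LPC libraries, and 0 to 371 with each library left out (4 without LPC-Ipsil replicate 1, 1 without LNIO-Ipsil replicate 1). The LPC side difference had 700, 26, 711, 1301 and 0 to 948 in the same order. LNIO-Ipsil against LPC-Ipsil had 18 called genes by DESeq2, 1 with no filter, 2 by limma on log2(FPKM + 0.1), 1 on log2(FPKM + 1), 439 without both LPC libraries and 0 to 266 with each library left out. LNIO-Contra against LPC-Contra had 8, 1, 1, 1, 2 and 0 to 2 in the same order. The L-NIO and LPC side differences had 0 called genes with every library in the edgeR settings without a block. The cause was not tested.

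In the LPC model same-numbered deviations correlated at -0.0357, 0.165 and 0.334. LPC-Ipsil 1 correlated best with LPC-Contra 2 (0.24), and LPC-Ipsil 2 and 3 with their own numbers. In the L-NIO model each Ipsil library correlated best with its own number, for replicate 3 by 0.249 against 0.195. With 3 libraries in each group this does not settle whether the numbers pair the samples in either model. With the replicate block in both models 237 interactions had an unadjusted p under 0.05.

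Of 118 named genes, 96 kept the sign of the interaction in all 25 alternatives, as did 17 of 41 list medians. With a replicate block without LPC pair 3 the value was -0.13 for Flt1, 0.15 for Mog, -0.36 for Apoe, -0.10 for Cldn5, -0.078 for Col1a1. With a replicate block the value was 0.078 for Cd68, 0.17 for Spp1, 0.14 for Mpeg1. By limma on log2(FPKM + 0.1) the value was 0.24 for Cd68, 0.61 for Spp1, 0.15 for Cst7, 0.21 for Mpeg1. By limma on log2(FPKM + 1) the value was 0.17 for Cd68, 0.60 for Spp1, 0.13 for Mpeg1. Without both LPC libraries the value was -0.73 for Apoe, -0.18 for Cldn5. With each library left out in turn, the genes that changed sign ranged as follows, in log2: Fcgr3 -1.09 to 0.088, Cxcl12 -0.043 to 0.70, Kl -0.88 to 2.70, Aqp1 -0.46 to 1.93, Clic6 -0.036 to 1.5998, Prlr -2.10 to 4.28, Hba-a1 -0.55 to 0.15, Pde10a -1.07 to 0.035, Mog -0.47 to 0.031, Gfap -0.71 to 0.16, Aif1 -0.65 to 0.27, Trem2 -1.37 to 0.010, Cd68 -1.06 to 0.16, Apoe -0.37 to 0.53, Spp1 -0.95 to 0.28, Cst7 -1.86 to 0.65, Mpeg1 -1.17 to 0.27, Hmgcs1 -0.92 to 0.010, Cldn5 -0.16 to 0.32, Col1a1 -0.26 to 0.35, Ttr -1.50 to 3.25.

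The 3 libraries in each group limit what can be seen, with a median SE of 0.28 log2 and much larger errors for the myeloid effector genes. No tissue count, animal identity or saline opposite side is given in the labels, and levels of choroid plexus, ependymal and striatal markers varied between libraries.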
